A study of Mus musculus with 8 samples.

Results

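The intercalated disc is the seam where heart muscle cells meet end to end, and the 9 genes described here encode its gap junction channels, its adhesive junctions and a scaffold that binds connexins. They are the connexins Gja1 (connexin 43) and Gja5 (connexin 40), the adherens junction gene Cdh2 (N-cadherin), the desmosome genes Dsg2, Dsc2, Jup, Pkp2 and Dsp, and the scaffold gene Tjp1 (ZO-1). They were picked by name, with earlier results of these data known. The platform's gene symbols were used to find them. Each of the 9 was read by 1 probe set, so that 9 of the 19933 genes measured are described. Total RNA came from left ventricles of 11-week-old C57/Bl6 mice of TET-OFF lines, in which tTA made under the αMHC promoter switches the responder transgene on in heart muscle cells. The 2 PlGF mice carried this driver and TRE-PlGF, a responder for placental growth factor, which is an angiogenic ligand of the VEGF family. The 3 mice labelled PlGF/RGS4 carried the driver and TRE-PlGF/RGS4, whose second product, RGS4, dampens G protein signalling. The 3 control mice were littermates with only 1 transgene, and the labels do not say which. In every group doxycycline had been given until 5 weeks of age and then withdrawn, which left 6 weeks for expression. Values are intensities on a linear scale, read on a separate Affymetrix mouse gene array for each heart.

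Gap junctions pass current and small molecules between neighbouring cells. In working ventricular muscle they are built mostly from connexin 43, while connexin 40 is found in atrial muscle, in the fast conduction system and in arterial endothelium. Adherens junctions and desmosomes carry mechanical load, the adherens junctions by anchoring actin and the desmosomes by anchoring desmin filaments. Mutations of PKP2, DSP, DSG2, DSC2 and JUP are known from human arrhythmogenic cardiomyopathy, in which connexin 43 is often reduced at the disc.

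Promoter sequence from RefSeq (build GRCm38.p6) was used for 5 of the 9 genes, namely Gja1, Gja5, Jup, Dsp and Tjp1. Each window held 300 bases, with 250 before the transcription start and 50 after it. Both connexin promoters are shown because Gja1 and Gja5 are the channel genes of the set, and that of Jup because its intensity, given below, overlapped between PlGF and control hearts. The windows lie at chr10:56377050-56377349 on the plus strand for Gja1, at chr3:97032152-97032451 on the plus strand for Gja5 and at chr11:100397741-100398040 on the minus strand for Jup. Capitals mark matches, on either strand, to the motifs described after the sequences.
Gja1: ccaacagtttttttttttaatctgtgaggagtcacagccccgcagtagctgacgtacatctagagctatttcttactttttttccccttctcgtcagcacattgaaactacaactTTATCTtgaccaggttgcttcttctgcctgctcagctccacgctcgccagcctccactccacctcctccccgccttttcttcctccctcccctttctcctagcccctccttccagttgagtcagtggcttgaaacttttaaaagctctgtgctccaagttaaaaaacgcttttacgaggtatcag
Gja5: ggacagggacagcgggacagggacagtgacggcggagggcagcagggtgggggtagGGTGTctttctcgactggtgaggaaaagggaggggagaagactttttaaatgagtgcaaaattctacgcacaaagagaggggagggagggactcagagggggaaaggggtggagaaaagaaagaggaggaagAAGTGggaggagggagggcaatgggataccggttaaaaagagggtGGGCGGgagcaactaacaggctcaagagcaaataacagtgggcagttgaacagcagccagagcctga
Jup: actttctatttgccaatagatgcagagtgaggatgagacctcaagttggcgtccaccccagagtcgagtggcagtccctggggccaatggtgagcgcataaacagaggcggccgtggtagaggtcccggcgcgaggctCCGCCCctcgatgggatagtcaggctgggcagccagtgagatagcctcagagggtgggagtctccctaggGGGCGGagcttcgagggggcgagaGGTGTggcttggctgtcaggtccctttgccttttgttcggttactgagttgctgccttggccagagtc

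The Gja1 window held 1 match to a GATA motif (AGATAA) and none to the other 4 motifs searched, which were a T-box half-site (GGTGT), the NKX2-5 core (AAGTG), an Sp1 GC box (GGGCGG) and a TATA box (TATAAA). The Gja5 window held 1 T-box match, 1 NKX2-5 match and 1 Sp1 match. The Jup window held 1 T-box match and 2 Sp1 matches. Of the promoters not shown, that of Dsp held 2 T-box and 4 Sp1 matches and that of Tjp1 held 2 Sp1 matches. No motif was shared by all 5 windows. Letters this short recur widely: among all 32851 promoters of the same length, 41.6% held the T-box letters, 46.4% the NKX2-5 letters, 35.7% the Sp1 letters, 13.6% the TATA letters and 11.2% the GATA letters. The GC content was 47.7% for Gja1, 55.7% for Gja5, 60.7% for Jup, 65.3% for Tjp1 and 73.0% for Dsp, with a median of 52.7% over all promoters.

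The labels were checked against the transgenes before any comparison. Pgf, the mouse gene for placental growth factor, read 4136 and 917 in PlGF hearts, against 300.0, 229 and 211 in hearts labelled PlGF/RGS4 and 211, 349 and 387 in control hearts. Rgs4 read 235 and 195 in PlGF hearts and 234, 187 and 229 in hearts labelled PlGF/RGS4, against 209.5, 277 and 281.5 in control hearts. Both PlGF hearts thus stood above all others for Pgf, PlGF replicate 1 far more than replicate 2, while the hearts labelled PlGF/RGS4 overlapped the controls for Pgf and for Rgs4. That group is therefore called by its label throughout. Which part of each transcript the probes read was not given in the sources used here. The 2 PlGF hearts also differed in Xist, an RNA made from the inactive X chromosome of females, with 26.9 in PlGF replicate 1 and 2724 in replicate 2. Xist was low in 1 of the 3 hearts labelled PlGF/RGS4 and in 1 of the 3 controls as well. The arrays were of like brightness, with medians of 111.1 to 115.15, but PlGF replicate 1 had a mean correlation across genes of 0.974 with the arrays of the other groups, against 0.991 to 0.993 for the other 7 arrays.

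In PlGF hearts 7 of the 9 genes read below every control heart in both replicates, and the other 2, Jup and Tjp1, overlapped the controls. The 7 were Gja1, Gja5, Cdh2, Dsg2, Dsc2, Pkp2 and Dsp, so every junction type of the disc had a member among them. Their log2 fold changes ran between -0.68 and -0.31, yet none of the 9 genes passed the adjusted test, the lowest adjusted p being 0.0583 for Pkp2 (limma, Benjamini-Hochberg over 19933 genes). Among all genes 0.748% were called lower and 1.79% higher in this comparison. At an unadjusted limma p under 0.05, 7 of the 9 were lower and 0 higher, where 11.7% of all genes were lower and 10.9% higher. Both PlGF hearts stood below all 3 controls for 19.5% of all genes. The median log2 fold change was -0.43 over the 9 genes and -0.03 over all genes. With 2 arrays against 3, a two-sided exact permutation test of a single gene cannot give less than 0.1, and it gave 0.1 for these 7 genes.

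**Figure D1:**
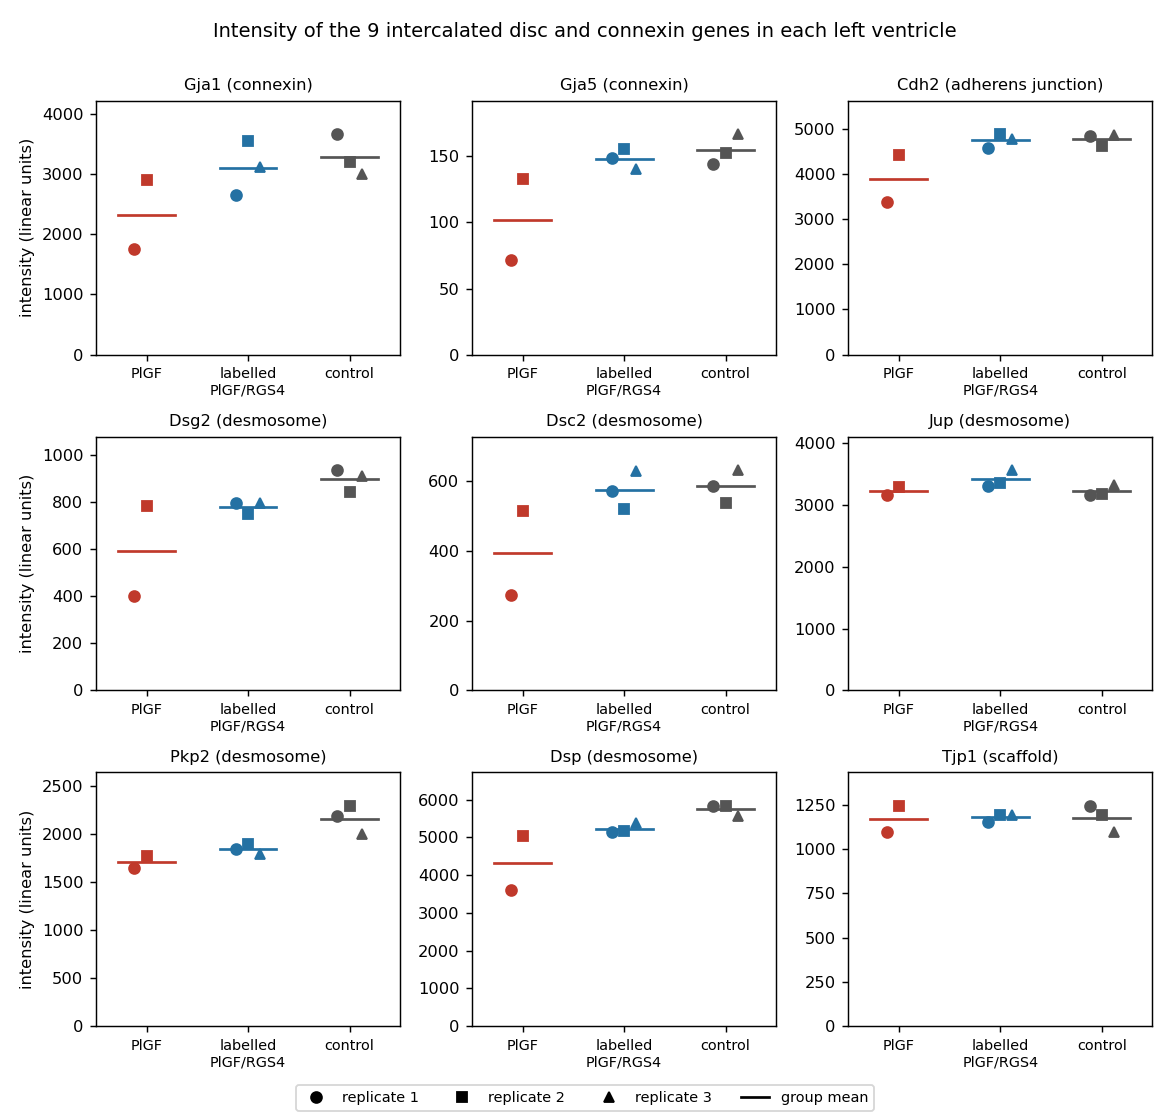
Intensity (linear units, each axis from 0) of the 9 genes in each left ventricle, with PlGF hearts at left, hearts labelled PlGF/RGS4 in the middle and controls at right; points are single hearts, their shape gives the replicate number, and bars are group means. PlGF replicate 1 is the lowest PlGF heart in all 9 panels, and Jup and Tjp1 are the panels in which PlGF and control hearts overlap.

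Gja1, which encodes the main ventricular connexin, read 1747 and 2909.8 in PlGF hearts, 2650.1, 3555 and 3117 in hearts labelled PlGF/RGS4, and 3669, 3199 and 2994.5 in control hearts. PlGF replicate 1 was the lowest of the 8 hearts, whereas replicate 2 was close under the lowest control and inside the range of the hearts labelled PlGF/RGS4. This gave a log2 fold change of PlGF over control of -0.54 ± 0.22 (SE), with a limma adjusted p of 0.2. Gja5 read 71.4 and 133 in PlGF hearts, 149, 156 and 140.4 in hearts labelled PlGF/RGS4, and 145, 152 and 167 in control hearts. Both PlGF hearts were below the other 6, which overlapped each other. Its log2 fold change over control was -0.66 ± 0.22 (SE; limma adjusted p = 0.142).

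In relative terms the 2 connexins were placed alike in each PlGF heart. PlGF replicate 1 held 53.1% of the control mean for Gja1 and 46.2% for Gja5, while replicate 2 held 88.5% and 85.7%. Gja5 is also an arterial gene, and the 10 arterial endothelial markers differed from the control mean by a median log2 value of -0.26 in PlGF replicate 1 and -0.01 in replicate 2. The 6 conduction system markers measured had -0.15 and -0.04. Of these 2 marker lists 0 genes passed the adjusted test in PlGF against control. Summed intensity ran from 2826 to 3024.5 in PlGF hearts and from 2797 to 2969.5 in controls for the arterial list. For the conduction list it ran from 359 to 494 in PlGF hearts and from 482 to 574.5 in controls. The 7 atrial markers had median log2 differences of -0.12 in PlGF replicate 1 and -0.03 in replicate 2, and 0 passed the adjusted test. Their summed intensity ran from 2775 to 5726 in PlGF hearts and from 4708 to 5334 in controls. The part of any of these cell types in the Gja5 values was not tested.

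Cdh2, the cadherin whose outer domain joins neighbouring heart muscle cells, read 3376 and 4417 in PlGF hearts, 4574, 4891 and 4772 in hearts labelled PlGF/RGS4, and 4844, 4614 and 4860.5 in control hearts. Both PlGF hearts were below the other 6 hearts, which ran over a narrow range. Its log2 fold change over control, -0.31 ± 0.11 (SE), was the smallest in size among the 7 genes without overlap (limma adjusted p = 0.15).

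Dsg2 encodes desmoglein 2, and Dsc2 desmocollin 2, the desmosomal cadherins of heart muscle. Dsg2 read 399.5 and 785 in PlGF hearts, 795, 751 and 795 in hearts labelled PlGF/RGS4, and 938, 843.5 and 910.0 in control hearts. The controls were above all 5 other hearts, and PlGF replicate 2 lay within the range of the hearts labelled PlGF/RGS4. Its log2 fold change of PlGF over control was the largest in size of the 9, at -0.68 ± 0.24 (SE; limma adjusted p = 0.155). Dsc2 read 275 and 515 in PlGF hearts, 573, 522 and 628 in hearts labelled PlGF/RGS4, and 587, 539 and 633 in control hearts. PlGF replicate 2 was only just under the lowest of the other 6 hearts, and those 6 overlapped. Dsc2 had a log2 fold change over control of -0.63 ± 0.23 (SE; limma adjusted p = 0.168).

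Pkp2 and Dsp carry the link from these cadherins inward. Pkp2 encodes plakophilin 2, an armadillo protein of the desmosomal plaque, and read 1641 and 1767 in PlGF hearts, 1844, 1894.5 and 1789 in hearts labelled PlGF/RGS4, and 2189, 2293 and 1994 in control hearts. The 3 groups did not overlap, and the 2 PlGF hearts were closer to each other than for any other of the 7 genes. Its log2 fold change of PlGF over control was -0.34 ± 0.07 (SE), with the lowest adjusted p of the set, 0.0583 (limma). Dsp encodes desmoplakin, which ties the plaque to desmin, and read 3613 and 5042 in PlGF hearts, 5153, 5169.7 and 5378 in hearts labelled PlGF/RGS4, and 5843, 5835 and 5558 in control hearts. For Dsp as well the 3 groups were placed without overlap, with PlGF lowest. PlGF over control gave a log2 fold change of -0.43 ± 0.12 (SE; limma adjusted p = 0.106).

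Jup and Tjp1 stood apart from the other 7. Jup encodes plakoglobin, which sits in both desmosomes and adherens junctions, and read 3164 and 3285 in PlGF hearts, 3312, 3364 and 3573 in hearts labelled PlGF/RGS4, and 3169, 3180.6 and 3331 in control hearts. The PlGF and control hearts interleaved, while both PlGF hearts were below all 3 labelled PlGF/RGS4. Its log2 fold change of PlGF over control was -0.00 ± 0.06 (SE; limma adjusted p = 0.996), which took the opposite sign under quantile normalization or centring on heart muscle markers. Tjp1, whose product binds the tail of connexin 43, read 1094 and 1242 in PlGF hearts, 1151, 1193 and 1193 in hearts labelled PlGF/RGS4, and 1245, 1193 and 1094 in control hearts. All 3 groups overlapped. Its log2 fold change of PlGF over control was -0.01 ± 0.08 (SE; limma adjusted p = 0.945), again with the sign turned after centring on heart muscle markers.

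**Figure D2:**
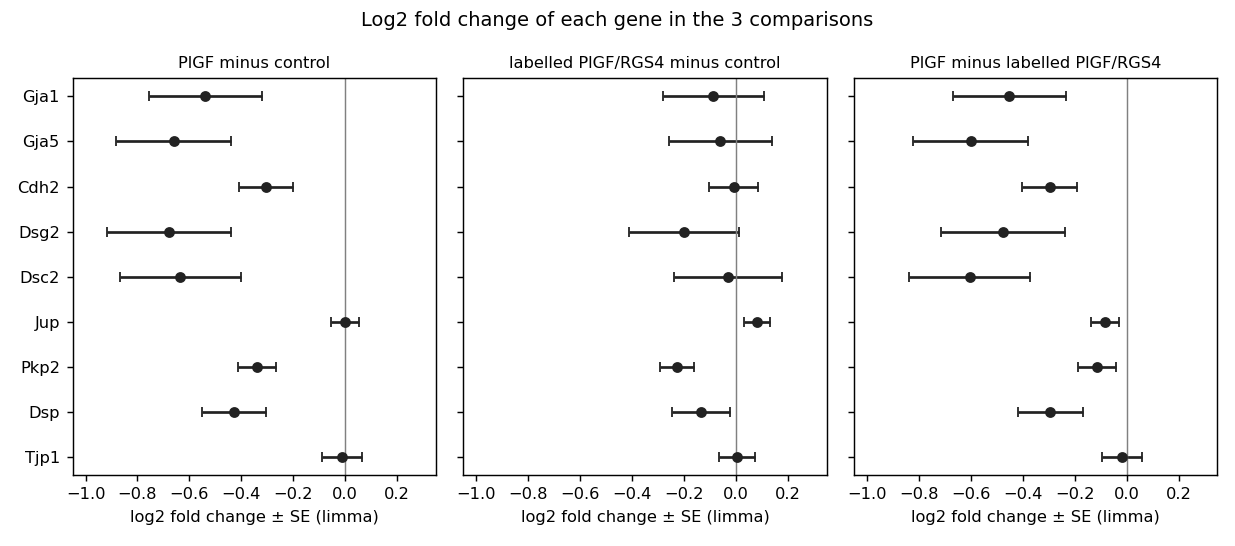
Log2 fold change with its limma SE for the 9 genes in PlGF minus control, hearts labelled PlGF/RGS4 minus control, and PlGF minus hearts labelled PlGF/RGS4; the vertical line is no difference. In the left panel 7 genes lie between -0.68 and -0.31 and Jup and Tjp1 at the line.

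The size of these differences came mostly from 1 heart. All 9 genes read lower in PlGF replicate 1 than in replicate 2, as did 52.8% of all genes. PlGF replicate 1 was below every control for 9 of 9 genes (43.5% of all genes) and replicate 2 for 7 of 9 (29.0% of all genes). A level under 80% of the control mean was seen for 7 of 9 genes in PlGF replicate 1, against 12.8% of all genes, and for 0 of 9 in replicate 2, against 2.93%. The 7 genes ran from 44.5% to 76.0% of the control mean in replicate 1 and from 81.9% to 92.5% in replicate 2. Jup and Tjp1 were at 98.1% and 92.9% in replicate 1, and at 102% and 105% in replicate 2. Pkp2 was the gene on which the 2 hearts came nearest, with 76.0% and 81.9%.

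Leaving out either PlGF heart moved the values by more than 1.5 times for each of the 7 genes but Pkp2. Without replicate 1 the log2 fold change over control was -0.17 for Gja1, -0.22 for Gja5, -0.11 for Cdh2, -0.19 for Dsg2, -0.18 for Dsc2, -0.19 for Dsp and -0.29 for Pkp2, and limma adjusted p-values ran from 0.2 to 0.832. Without replicate 2 it was -0.91 for Gja1, -1.10 for Gja5, -0.50 for Cdh2, -1.16 for Dsg2, -1.09 for Dsc2, -0.67 for Dsp and -0.39 for Pkp2, and all 7 were called, with the lone PlGF heart assumed to vary like the other groups. In that fit 5921 genes were called in all, so that the calls of these 7 belong to a heart that differed from controls in many genes. Leaving out any 1 of the other 6 hearts gave no call among the 9 genes.

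**Figure D3:**
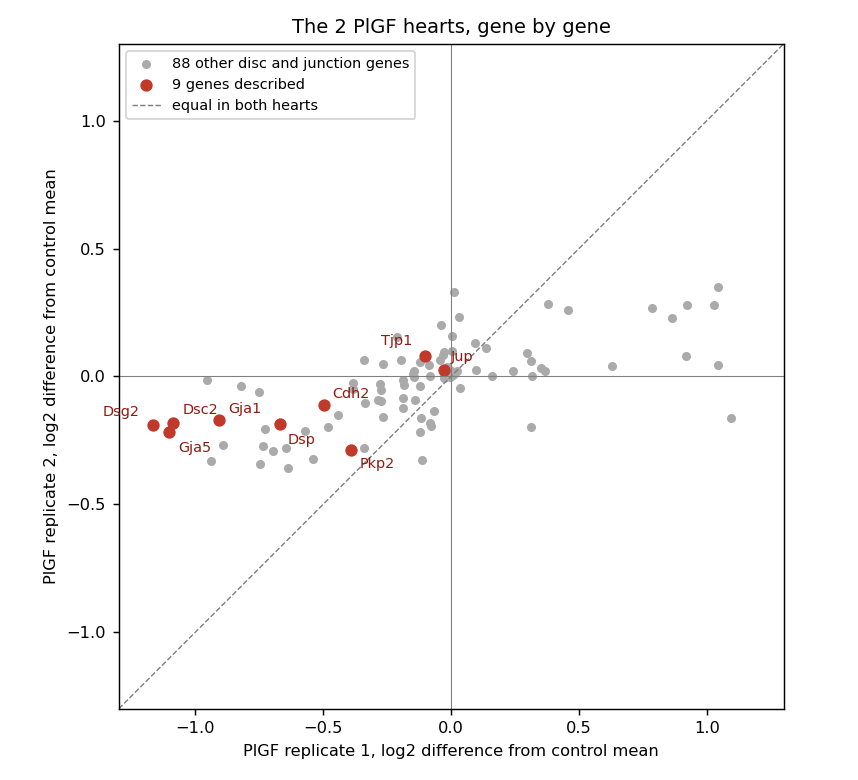
Log2 difference from the control mean in PlGF replicate 1 (horizontal) and PlGF replicate 2 (vertical) for the 9 genes (red, named) and 88 other genes of discs and junctions (grey); the dashed line marks equal differences in both hearts. Dsg2, Dsc2, Gja5 and Gja1 lie far left of the line and a little under 0 vertically, Pkp2 lies nearest to the line among the 7 genes below control, and Jup and Tjp1 lie near the origin.

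Other cell types moved with PlGF replicate 1 too. Among 11 leukocyte markers 6 were called higher in PlGF hearts over control (limma), namely Ptprc, Cd3e, Cd3g, Cd8a, Nkg7 and Lyz2, and the median log2 difference from the control mean was 2.13 in PlGF replicate 1 and 0.71 in replicate 2. Their summed intensity was 6434 to 12557 in PlGF hearts and 3101 to 4115 in hearts labelled PlGF/RGS4, against 3477 to 3715 in controls. Ptprc, the pan-leukocyte gene CD45, read 1051 and 505.5 in PlGF hearts, against 147.5, 157 and 162 in control hearts. Of 11 heart muscle markers 0 were called, and their median difference was -0.18 in PlGF replicate 1 and -0.00 in replicate 2. The summed intensity of the heart muscle markers was 121577 to 141385 in PlGF hearts and 141236 to 141860 in hearts labelled PlGF/RGS4, against 142124 to 143853 in controls. At an unadjusted p under 0.05, 3 of these 11 were lower and 0 higher, where 11.7% of all genes were lower and 10.9% higher. The 3 encode calcium handling proteins of the sarcoplasmic reticulum. Ryr2, its calcium release channel, read 3573 and 6479 in PlGF hearts and 8408, 7892 and 7694 in control hearts (log2 fold change -0.73, limma adjusted p = 0.107). Pln, which restrains the calcium pump, had a log2 fold change of -0.27, and Atp2a2, the pump itself, one of -0.25. Both PlGF hearts read below every control for these 3 markers and for Ttn, as they did for 19.5% of all genes. The other 7 overlapped the controls, among them the defining genes Myh6 and Tnnt2, with Myh6 at 12023 and 13622 in PlGF hearts and at 13301 to 13534 in control hearts.

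Centring each array on the median of those heart muscle markers left log2 fold changes of PlGF over control of -0.46 for Gja1, -0.58 for Gja5, -0.22 for Cdh2, -0.60 for Dsg2, -0.55 for Dsc2, -0.26 for Pkp2 and -0.35 for Dsp, with 0.08 for Jup and 0.07 for Tjp1. That centring was chosen after the data had been seen, and 0 of the 9 genes passed with it. Endothelial markers had median differences of 0.23 and 0.18 in PlGF replicates 1 and 2 (1 of 10 called higher, Cdh5), pericyte and smooth muscle markers 0.24 and -0.17 (1 of 9 called higher, Pdgfrb) and fibroblast markers 0.09 and 0.03 (0 of 9 called). At an unadjusted limma p under 0.05, 4 of the endothelial markers were higher and 0 lower. Of the pericyte and smooth muscle markers 2 were higher and 1 lower at that p. Among the fibroblast markers 3 were higher and 0 lower, where 10.9% of all genes were higher and 11.7% lower. Those 3 were Col1a1, Col1a2 and Col3a1, with log2 fold changes of 0.60, 0.56 and 0.67. Postn read 4050 and 768 in PlGF hearts and 732 to 774 in controls. The rest of the fibroblast list went both ways. Lum, Pdgfra, Dcn and Dpt had log2 fold changes of -0.24, -0.20, -0.14 and -0.09, and Tcf21 one of 0.12. The summed intensity of the fibroblast list was 13469 to 16106 in PlGF hearts, against 13153 to 13859 in controls. The part of leukocytes, of the other cell types and of the sex difference in the junction gene values was not tested. In ventricular RNA, fewer cells of a type and less RNA per cell cannot be told apart.

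In hearts labelled PlGF/RGS4 the log2 fold changes of the 9 genes over control ran from -0.23 to 0.08. Of the 9 genes 0 passed the adjusted test (lowest limma adjusted p = 0.883). Over all genes 0.0% were called lower and 0.0151% higher. Dsg2, Pkp2 and Dsp read below every control in all 3 hearts, where 5.85% of all genes did so, and 1 of the 9, Pkp2, was lower at an unadjusted p under 0.05, as were 2.28% of all genes. The log2 fold change over control was -0.23 ± 0.06 (SE) for Pkp2, -0.20 ± 0.21 for Dsg2 and -0.13 ± 0.11 for Dsp. Gja1 averaged 3107 ± 452 in hearts labelled PlGF/RGS4 and 3287 ± 346 in controls (SD, n = 3 each), a log2 fold change of -0.09 ± 0.19 (SE). Gja5 averaged 148 ± 7.66 in hearts labelled PlGF/RGS4 and 155 ± 11.4 in controls (SD, n = 3 each), a log2 fold change of -0.06 ± 0.20 (SE). For both connexins the difference was smaller than the SD of either group. Jup had a log2 fold change of 0.08 ± 0.05 (SE), and Cdh2, Dsc2 and Tjp1 had -0.01, -0.03 and 0.00. The median was -0.06 over the 9 genes and 0.00 over all genes.

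Set against hearts labelled PlGF/RGS4, PlGF hearts had all 9 genes at a lower mean, with 0 passing the adjusted test (lowest limma adjusted p = 0.201, for Cdh2). Over all genes 0.0853% were called lower. At an unadjusted p under 0.05, 4 of the 9 were lower, namely Gja5, Cdh2, Dsc2 and Dsp, where 10.6% of all genes were. Both PlGF hearts read below all 3 hearts labelled PlGF/RGS4 for Gja5, Cdh2, Dsc2, Jup, Pkp2 and Dsp, that is 6 of 9 genes, where 19.9% of all genes did so. In this comparison the log2 fold change was -0.60 ± 0.22 (SE) for Gja5, -0.60 ± 0.23 for Dsc2 and -0.45 ± 0.22 for Gja1. Dsg2 had -0.48 ± 0.24 (SE), and without PlGF replicate 1 it had 0.009. Pkp2, the gene with the smallest SE relative to its change over control, had only -0.11 ± 0.07 (SE; limma adjusted p = 0.405) here. The median was -0.30 over the 9 genes and -0.03 over all genes. This comparison and the one with controls share the PlGF hearts, so their values are not separate evidence.

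Beyond the 9 genes, 97 further genes of junctions and discs were listed, also with earlier results of these data known, and 88 were measured. In PlGF hearts against control 1 of the 88 was called lower and 0 higher, while at an unadjusted p under 0.05 there were 20 lower (22.7%) and 9 higher (10.2%). Over all genes 0.748% were called lower and 1.79% higher, and 11.7% were lower and 10.9% higher before adjustment, so the share of the 88 that was higher lay near that of all genes. The counts of the single lists given next are to be read against the same shares. The gene called was Ctnna1, α-catenin, which links the cadherin complex to actin. Ctnna1 read 2127 and 2217 in PlGF hearts, 2440, 2480 and 2404 in hearts labelled PlGF/RGS4, and 2718, 2597 and 2761 in control hearts. Ctnna1 thus fell in PlGF hearts relative to control, with a log2 fold change of -0.31 ± 0.05 (SE; limma adjusted p = 0.0337), with no overlap of the 3 groups. The call was lost on leaving out any 1 heart other than PlGF replicate 2, and with the 2 groups fitted alone, with the methods' t-test and after centring on heart muscle markers. The log2 fold change itself stayed between -0.34 and -0.28 on leaving out 1 heart and was -0.23 after that centring. With the replicate number added to the fit as a block, it was -0.31 and the call was also lost (limma adjusted p = 0.134). The median log2 fold change over the 88 was -0.04, near the -0.03 of all genes.

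Among the other adherens junction genes (14 of 14 measured) 4 were lower and 1 higher at an unadjusted p under 0.05. Lmo7, a LIM domain protein of cell junctions, read 1551 and 2000.5 in PlGF hearts and 2260.1, 2504 and 2535 in controls (log2 fold change -0.46, limma adjusted p = 0.0706). Cdh13, a cadherin without a cytoplasmic tail, had a log2 fold change of -0.47, and Pkp4 one of -0.30. Afdn, the actin-binding afadin of nectin junctions, read 801 and 751.5 in PlGF hearts and 634, 624.5 and 592 in controls, a log2 fold change of 0.33 (limma adjusted p = 0.0692). Afdn was above, and Ctnna1 below, the whole control range by a similar margin in both PlGF hearts. Of the other desmosome genes (11 of 13 measured) 3 were lower at an unadjusted p under 0.05, namely Perp, Ppl and Pkp1. Perp, a membrane protein needed for desmosomes in mouse skin, read 1365 and 1656.5 in PlGF hearts and 2169, 1976 and 2244 in controls, and missed the threshold narrowly (log2 fold change -0.50, limma adjusted p = 0.0501). Ppl, periplakin, had a log2 fold change of -0.58 and Pkp1 one of -0.14. Des, whose filaments the desmosomes anchor, read 11268 and 9047 in PlGF hearts and 8845, 8824 and 8845 in controls, so both PlGF hearts stood above the controls, replicate 1 more so.

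The actin linkers of the disc (12 of 12 measured) were split. PlGF replicate 1 read above every control for 8 of the 12 and below every control for 4, and replicate 2 for 6 and 5. Of all genes, 43.5% read below every control in replicate 1 and 29.0% in replicate 2. The share of all genes above every control was not counted, so the counts of 8 and 6 have no background to be read against. Of the 6, Vasp read 227.7 in replicate 2, only just over the highest control at 227.6. The list median of the log2 difference from control was 0.75 in replicate 1 and 0.04 in replicate 2. At an unadjusted p under 0.05, 5 were higher and 3 lower, and 0 passed the adjusted test. Xirp2, a Xin repeat protein that binds actin at the disc, read 7337 and 4535 in PlGF hearts and 3782, 3741 and 3195 in controls (log2 fold change 0.70, limma adjusted p = 0.089). Flnc, filamin C, read 4974.5 and 2961 in PlGF hearts and 2731, 2418 and 2200.1 in controls (0.65), Tln1, talin 1, had a log2 fold change of 0.55 and Enah, an actin filament elongation factor, one of 0.50. Myzap, a disc protein that binds desmoplakin and ZO-1, was among those below control, with 1717 and 2617 in PlGF hearts and 3239, 3366 and 3267 in controls (-0.63, limma adjusted p = 0.0862). The other 2 lower at an unadjusted p under 0.05 were Nexn, an actin-binding protein of the Z-disc, and Tln2, talin 2, which are named here after their values were seen. Nexn read 1867 and 2471.2 in PlGF hearts and 3081, 3017 and 2980 in controls, and had the lowest adjusted p of the list (-0.49, limma adjusted p = 0.0594). Tln2 had a log2 fold change of -0.31 (limma adjusted p = 0.148). The remaining linker that was higher at that unadjusted p was Nrap, also named after its values were seen. Nrap read 5048 and 4407 in PlGF hearts and 3504, 4029 and 3519 in controls (0.36, limma adjusted p = 0.0721).

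Of the other connexins and pannexins 17 of 21 were measured, and 0 were called. Panx1, which forms large single-membrane channels, read 169 and 108 in PlGF hearts, 81.7, 91.6 and 80.7 in hearts labelled PlGF/RGS4, and 85.1, 91.6 and 89.2 in controls, a log2 fold change over control of 0.60 (limma adjusted p = 0.0976). Gja4 (connexin 37, an endothelial connexin) read 219 and 190.0 in PlGF hearts and 183, 169.5 and 182 in controls (0.19, limma adjusted p = 0.172). Gjd2, a neuronal connexin, was dim, at 22.0 and 18.8 in PlGF hearts and 23.7, 23.8 and 24.1 in controls. Panx1 and Gja4 were above all controls in both PlGF hearts, so that the channel genes did not share 1 direction.

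Among channels and membrane scaffolds (13 of 16 measured) 4 were lower and 0 higher at an unadjusted p under 0.05, with 0 called. Tmem65, a disc membrane protein linked to connexin 43 in mouse heart, read 1822 and 2415 in PlGF hearts, 2468, 2418 and 2518 in hearts labelled PlGF/RGS4, and 3005, 3176 and 2998 in controls. As with Dsp, the 3 groups did not overlap, and the log2 fold change of PlGF over control was -0.54 (limma adjusted p = 0.0501). Fgf13, a partner of sodium channels, read 440 and 607 in PlGF hearts and 762, 708.5 and 730 in controls (-0.50, limma adjusted p = 0.0728). Ank2, ankyrin B, had a log2 fold change of -0.34 and Popdc2, a cAMP-binding membrane protein, one of -0.17. The list median was -0.17.

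Of the transcription factors of the conduction system (10 of 10 measured) 0 were called and 2 were lower over control at an unadjusted p under 0.05. Etv1, a factor of fast-conducting muscle, read 302 and 352 in PlGF hearts, 372, 371 and 391 in hearts labelled PlGF/RGS4, and 483, 439 and 403 in controls (log2 fold change -0.43, limma adjusted p = 0.0604). Irx3, which governs Gja5 and Gja1 in the mouse conduction system, read 211 and 270.3 in PlGF hearts and 350.3, 307 and 287 in controls (-0.39, limma adjusted p = 0.163). Tbx5, an activator of Gja5 in mouse heart, read 468 and 807 in PlGF hearts, 1012, 1075.5 and 1060 in hearts labelled PlGF/RGS4, and 912, 797 and 781 in controls. PlGF replicate 1 was far below the controls for Tbx5 and replicate 2 inside their range (-0.43, limma adjusted p = 0.254). Among genes of connexin trafficking and turnover (11 of 11 measured) 3 were lower and 1 higher at an unadjusted p under 0.05, with 0 called. Prkca, a kinase that acts on connexin 43, read 940 and 655 in PlGF hearts and 510.1, 537 and 590.0 in controls (0.53, limma adjusted p = 0.134), whereas Ubqln4, Prkce and Dctn1 had log2 fold changes of -0.22, -0.21 and -0.16.

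In hearts labelled PlGF/RGS4 against control 0 of the 88 genes were called, and 3 were lower at an unadjusted p under 0.05, namely Ctnna1, Tmem65 and Etv1. That is 3.41% of the 88, where 2.28% of all genes were lower, and 0 were higher, where 2.74% of all genes were. Their log2 fold changes were -0.14 for Ctnna1, -0.31 for Tmem65 and -0.22 for Etv1. In PlGF hearts against those labelled PlGF/RGS4 0 of the 88 were called, with 17 lower (19.3%) and 10 higher (11.4%) at an unadjusted p under 0.05. Over all genes 0.0853% were called lower and 1.1% higher, and 10.6% were lower and 8.95% higher before adjustment. Among the genes under that unadjusted p, the largest of each list had log2 fold changes, PlGF over hearts labelled PlGF/RGS4, of 0.67 for Panx1, -0.33 for Lmo7, -0.30 for Perp, 0.51 for Enah, -0.47 for Fgf13, -0.77 for Tbx5 and 0.46 for Prkca. Next to these stood Gja3 at -0.29, Gjd2 at -0.24, Afdn at 0.22, Ctnna1 at -0.17, Des at 0.23, Pkp1 at -0.14, Flnc at 0.49, Tln1 at 0.46, Dlg1 at -0.23, Ank3 at -0.17, Irx3 at -0.37, Shox2 at -0.19 and Dctn1 at -0.14, with limma adjusted p-values of all 20 between 0.113 and 0.25. Both PlGF hearts lay outside the range of the hearts labelled PlGF/RGS4 for each of these 20 genes except Des. They lay below that range for 19.9% of all genes. The 20 genes were picked by their p in this same comparison, so their placement is not a separate result.

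**Figure D4:**
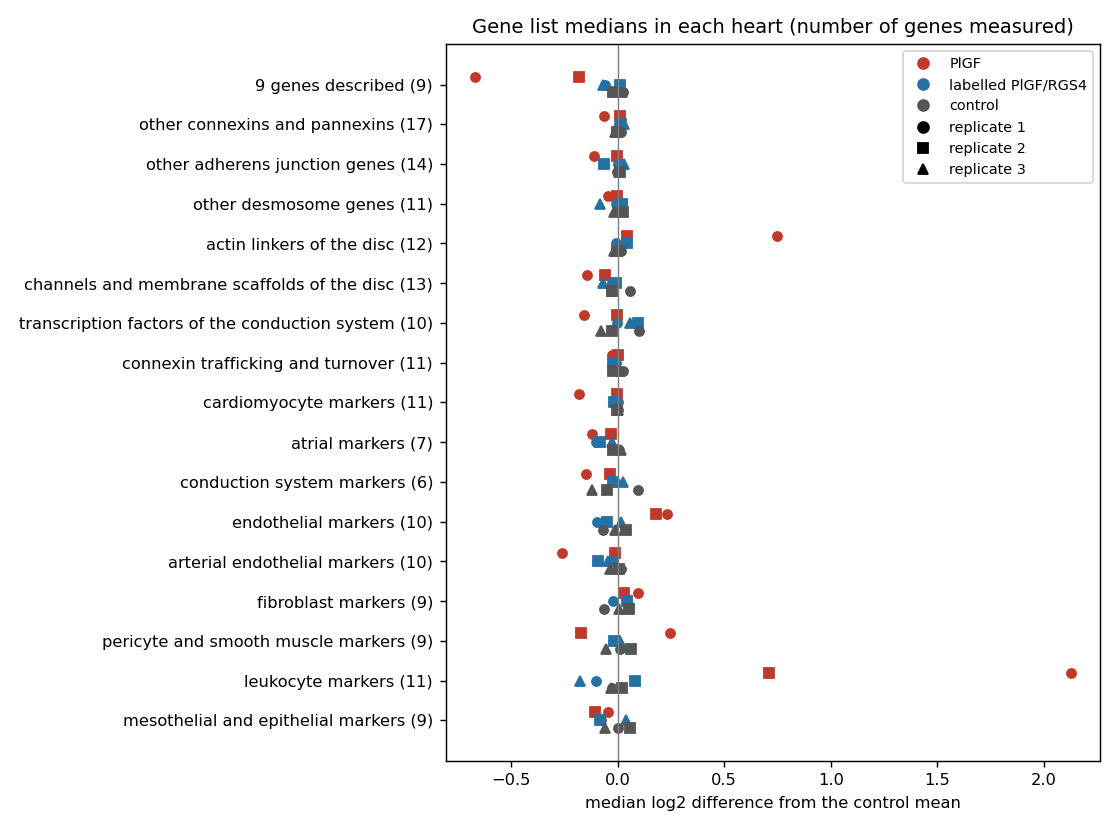
Median log2 difference from the control mean for each gene list in each heart, with PlGF hearts in red above hearts labelled PlGF/RGS4 in blue and controls in grey, replicate numbers as point shapes and the number of genes measured in brackets. The 9 genes described sit at -0.67 in PlGF replicate 1 and -0.18 in replicate 2, leukocyte markers at 2.13 and 0.71, and actin linkers at 0.75 and 0.04.

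The genes whose pattern over the 8 hearts was most like that of each connexin were found by the root mean square difference between log2 differences from the control mean. For Gja1 these were Rhbdl3 (0.068), Tmem25 (0.0856) and Idh1 (0.0875), where the median over all genes was 0.352. Rhbdl3, a rhomboid-like membrane protein, read 131 and 227 in PlGF hearts, 213, 295 and 253 in hearts labelled PlGF/RGS4, and 273, 277 and 241 in controls. Idh1, cytosolic isocitrate dehydrogenase, read 720.0 and 1192 in PlGF hearts and 1427, 1355 and 1179 in controls. For Gja5 the nearest were Pxmp2 (0.0642), Adhfe1 (0.0682) and Cdnf (0.0724), where the median over all genes was 0.4. Adhfe1, a mitochondrial dehydrogenase, read 1553 and 2837 in PlGF hearts and 3035, 3425 and 3388 in controls. PlGF replicate 1 was the lowest of the 8 hearts in these genes as well, which follows from how they were picked.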

How the data were processed

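Left ventricular RNA of 8 mice was read on Affymetrix mouse gene arrays, and the authors deposited 1 intensity per probe set and array, made with MAS5 with global scaling according to the methods; the submitters' processing notes also name MAS5. The deposited intensities were linear, from 7.1 to 21704, and any pair of arrays held the same value for 4.1% to 8.91% of probe sets. Which summary of the probes gave these intensities could not be settled from the values themselves. No detection calls, scan dates or genome build were given in the sources used here. All columns were used.

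Of 28440 probe sets, 5042 had no gene symbol and 1618 had several; the 21780 with 1 symbol were kept, and the brightest probe set of a gene was taken, which gave 19933 genes. Log2 of the intensity plus 1 was fitted in limma 3.58.1 (R 4.3.3; lmFit and eBayes) with 3 group means over all 8 arrays, and p-values were adjusted by Benjamini-Hochberg over 19933 genes at a threshold of 0.05. A fold change on this scale understates the change of dim genes. For single genes an exact permutation test (two-sided) was run too. The fit was tested on simulated data. Tables were made in Python 3.11.15 with pandas 2.3.3.

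The 9 genes and the gene lists were chosen with earlier results of these data known. Named were all 9 genes; of each list up to 5 genes with an unadjusted p under 0.05 in PlGF versus control, largest change first, and up to 3 in the other 2 comparisons; every gene called; and the 3 genes nearest to Gja1 and to Gja5. By the labels the replicates are biological. Alternatives covered normalization, centring, a filter on dim genes, all probe sets, the prior, the samples fitted, the methods' t-test, a replicate block, the pseudocount and leaving out each array. The microRNA arrays were not analysed here.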

Additional observations from a re-analysis of the deposited data

Results flagged for a closer look

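4 genes of the junction lists lay below the control mean in both PlGF hearts and above it in all 3 hearts labelled PlGF/RGS4; this opposite placement was the reason for a closer look, and whether the 2 effects differ was tested only by limma for PlGF against hearts labelled PlGF/RGS4, where none of the 4 passed. Tbx5 had the widest gap, a log2 difference of -0.77 between PlGF hearts and those labelled PlGF/RGS4 (limma adjusted p = 0.124), and lay -0.82 and -0.04 from the control mean in the PlGF hearts and 0.29, 0.38 and 0.36 in those labelled PlGF/RGS4. Dlg1, a membrane scaffold, had -0.23 (limma adjusted p = 0.25). In hearts labelled PlGF/RGS4 it lay 0.03, 0.02 and 0.04 above the control mean, within the spread of controls (-0.03 to 0.06). Gjd2, a neuronal connexin, had -0.24 (limma adjusted p = 0.141), and Shox2, a factor of the sinus node, had -0.19 (limma adjusted p = 0.226). Both were dim, at 18.8 to 24.6 for Gjd2 and 21.4 to 27.8 for Shox2 over all 8 hearts. In hearts labelled PlGF/RGS4 Gjd2 lay 0.008, 0.014 and 0.042 above the control mean, and Shox2 0.0008, 0.0008 and 0.18. The share of all genes placed this way was not counted.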

How the results depend on the processing

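For PlGF versus control 505 genes were called (356 higher, 149 lower). The count was 0 with only the 2 groups fitted (3109 before adjustment, at 0.05), 2 by the methods' t-test, 27 with the replicate block, 279 after centring on heart muscle markers, and 17 to 5921 on leaving out 1 array. Centring on the array median gave 376 higher and 317 lower, and moved the median of all genes to -0.08, against 0.05 on heart muscle markers. For hearts labelled PlGF/RGS4 versus control 3 were called, against 0 with 2 groups (1774 at an unadjusted p under 0.05), with the t-test and with the block, and 0 to 1 on leaving out 1 array. For PlGF versus PlGF/RGS4 237 were called, against 110 among genes above the median level, 1 with 2 groups, 2 with the t-test, 26 with the block, 138 with a pseudocount of 16, 129 on heart muscle markers, and 11 to 5591 on leaving out 1 array.

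Of the 9 genes 0 were called in each comparison, and 0 with the replicate block. For PlGF versus control 1 passed with median centring (Pkp2, adjusted p = 0.0378) and 0 to 7 on leaving out 1 array, and for PlGF versus PlGF/RGS4 0 to 6. The disc lists, with 1 gene called, gave 5 with median centring, 3 above the median level, 2 on heart muscle markers, 0 with 2 groups, the t-test or the block (Ctnna1 -0.31, adjusted p = 0.134 with the block), and 0 to 41 on leaving out 1 array. The highest count in each range came without PlGF replicate 2, except that of 1 gene without control replicate 1. The cause was not tested.

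Signs that turned belonged to log2 fold changes near 0, or to Dsg2. For PlGF versus control, Jup gave 0.0728 with quantile normalization, 0.027 with the block, 0.0811 on heart muscle markers and -0.028 to 0.0261 on leaving out 1 array; Tjp1 gave 0.0695 on heart muscle markers and -0.104 to 0.0786 on leaving out 1 array. For PlGF/RGS4 versus control, Cdh2 gave 0.0033 with quantile normalization and 0.0034 on heart muscle markers, and Tjp1 gave -0.0036 with median centring. On leaving out 1 array Gja1 gave -0.189 to 0.0232, Cdh2 -0.0326 to 0.0179, Dsc2 -0.0973 to 0.0363 and Tjp1 -0.0479 to 0.0451. For PlGF versus PlGF/RGS4, Tjp1 gave 0.0538 on heart muscle markers and -0.108 to 0.0747 on leaving out 1 array, and Dsg2 gave -0.964 to 0.00916. Deviations from group means of arrays with the same replicate number correlated at -0.217 to 0.296. Arrays with different numbers were not compared, so whether the numbers pair the arrays was not settled. With 2 PlGF arrays and no detection calls, precision is limited by the number of arrays.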
